A study of Mus musculus with 6 samples.

Results

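Cells obtain cholesterol from lipoproteins through surface receptors, store it as cholesteryl ester and return it to lipoproteins through membrane transporters. The 9 genes described here, Abca1, Abcg1, Apoe, Apoc1, Scarb1, Lrp1, Msr1, Mylip and Soat1, were taken by symbol from a table of 22966 genes, and all 9 were found and tested. RNA sequencing covered 6 libraries labelled primary hepatic stellate cells, the retinoid-storing pericytes of the liver, 3 titled Cre and 3 titled flox. All 6 carry the genotype entry BucheHep and the treatment entry CCl4 (carbon tetrachloride, a toxin that brings on liver fibrosis), and their growth entry names BucheΔHep mice, so only the titles tell the groups apart. By its description the series concerns a knockout in hepatocytes, butyrylcholinesterase and muscarinic signalling to stellate cells. No source used here gives the promoter that drives the Cre, the age and sex of the mice, the dose and duration of CCl4, any sort of the cells, or whether replicates are different mice. The p-values therefore measure the spread between these libraries, which may be technical.

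Liver X receptors (LXR) are nuclear receptors that sense oxysterols and, paired with the retinoid X receptor, switch on genes that remove cholesterol, among them Abca1, Abcg1, Apoe and Mylip. Macrophages, including the resident Kupffer cells of the liver, take up modified lipoproteins through scavenger receptors and depend on this export. Hepatocytes make most circulating lipoproteins, and stellate cells hold neutral lipid together with their retinoid stores.

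The libraries held 37273142 to 41006722 counts, and the 9 genes had between 223 and 249360 counts in any library. On the first principal component, which held 61.0% of the variance, the Cre libraries lay between -63.8 and -39.8, flox 1 and 2 lay at 64.3 and 89.3, and flox 3 lay in between at 6.61. Bche, which encodes butyrylcholinesterase, had 15, 8 and 2 counts in Cre 1, 2 and 3 and 17, 6 and 21 counts in flox 1, 2 and 3 (log2 fold change -0.88 ± 0.80, edgeR adjusted p = 0.467), too few to check the titles, and the deletion is described for another cell type. Markers of macrophages were far lower in the Cre libraries. Of 20 macrophage markers 17 fell and 0 rose, with a median log2 fold change of -2.98, and their summed level was 2665, 2555 and 3092 CPM (counts scaled to library size by TMM factors) in Cre 1, 2 and 3, against 18789, 23879 and 8519 CPM in flox 1, 2 and 3. No macrophage marker was at 0 in any library. Stellate markers had 2 of 18 members higher and 0 lower and a median log2 fold change of 0.29, with summed levels of 1956 to 3352 CPM in Cre and 1216 to 2544 CPM in flox libraries. Over all genes tested, edgeR called 6.35% higher and 8.94% lower. The 2 stellate markers that rose were decorin (Dcn), at 972 ± 383 CPM in Cre and 416 ± 44.3 CPM in flox libraries (SD, n = 3), and Hand2, at 11.3 ± 1.34 CPM in Cre and 5.37 ± 1.83 CPM in flox libraries (edgeR adjusted p of 0.0351 and 0.0492). The stellate marker Lrat, which esterifies retinol, was close to absent, at 0.169 to 1.03 CPM in Cre and 0.124 to 2.49 CPM in flox libraries, and desmin (Des) averaged 11.8 CPM in Cre and 19.2 CPM in flox libraries, neither past the edgeR test. In bulk libraries, fewer cells of a type and less RNA per cell cannot be told apart.

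All 9 genes had lower averages in the Cre libraries, and 6 of them, Apoc1, Apoe, Msr1, Abcg1, Mylip and Scarb1, fell past the test, while 0 rose. The test was edgeR's quasi-likelihood F-test (two-sided) over 14795 genes, with Benjamini-Hochberg adjusted p below 0.05, a rule that called 8.94% of all genes lower in Cre and 6.35% higher. The median log2 fold change of the 9 genes was -0.99, against 0.01 over all genes tested. Abca1, Soat1 and Lrp1 had negative fold changes that did not pass. Each Cre library lay below each flox library for 7 of the 9 genes, which was so for 20.0% of all genes tested (the reverse held for 0 of the 9 and 19.6% of all), and for Lrp1 and Soat1 the groups overlapped. Of all genes tested, 940 were higher and 1323 lower, and with scaling to library totals alone 1415 were higher and 1066 lower, since that scaling shifted the median of all genes by 0.16 on the log2 scale; under it all 9 genes were negative and 6 fell.

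**Figure D1:**
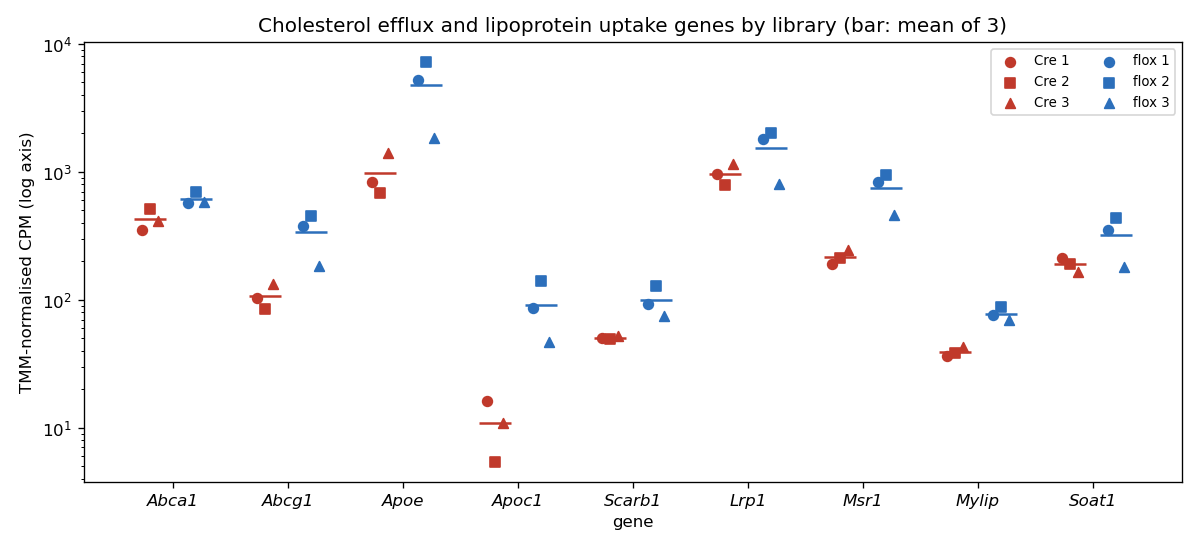
TMM-normalised CPM (log axis) of each of the 9 genes in the 3 Cre libraries (red, left of each pair) and the 3 flox libraries (blue), with symbols for the replicate number and a bar at the mean of 3. The Cre points lie below all flox points for every gene except Lrp1 and Soat1, for which flox 3 lies among the Cre points.

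The first pair of genes encodes the cholesterol exporters. Abca1, which loads cholesterol and phospholipid onto lipid-poor apolipoprotein A-I (chromosome 4, 53030787 to 53159895 in GRCm38, minus strand), stood at 353, 516 and 414 CPM in Cre 1, 2 and 3 and 572, 698 and 584 CPM in flox 1, 2 and 3. Its Cre libraries were all below its flox libraries, but Cre 2 came close to flox 1. Its log2 fold change (Cre over flox, n = 3 each, ± standard error here and for later genes) came to -0.53 ± 0.17 in edgeR, with an adjusted p of 0.0803. It was the smallest of the 9, and it passed in DESeq2 (adjusted p = 0.0368). Abcg1, which passes cholesterol to mature high-density lipoprotein (chromosome 17, 31057675 to 31117988, plus strand), was at 103, 84.6 and 133 CPM in Cre 1, 2 and 3 and 380.0, 449.9 and 184 CPM in flox 1, 2 and 3. Every Cre library was lower than flox 3, the lowest flox library, and the mean of 107 ± 24.2 CPM in Cre compared with 338 ± 138 CPM in flox (SD). Abcg1 fell by 1.66 ± 0.35 on the log2 scale (edgeR adjusted p = 0.0302).

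The window of 250 bases before and 50 after the gene start was searched in RefSeq's promoter table (GRCm38.p6), which was matched for 5 of the 9 genes, not for Abcg1, Apoc1, Scarb1 or Msr1. It was searched on both strands for the LXR element, a direct repeat written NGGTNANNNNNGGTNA, for the PU.1 core GAGGAA, bound by a macrophage factor, and for the sterol element TCACNCC; the 3 motifs were found in 0.718%, 28.3% and 15.6% of all 32851 windows. Abca1 and Apoe are shown as the genes with a match, and Mylip, another LXR target, as one with none, in the direction of the gene and with matches in capitals.
Abca1, chr4:53159846-53160145, minus strand: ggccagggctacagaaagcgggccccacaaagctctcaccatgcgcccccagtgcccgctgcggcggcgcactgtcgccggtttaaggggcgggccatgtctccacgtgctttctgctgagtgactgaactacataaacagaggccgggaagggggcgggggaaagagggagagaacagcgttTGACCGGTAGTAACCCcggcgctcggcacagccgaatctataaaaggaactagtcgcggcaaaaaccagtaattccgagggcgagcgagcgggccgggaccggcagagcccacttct
Apoe, chr7:19699139-19699438, minus strand: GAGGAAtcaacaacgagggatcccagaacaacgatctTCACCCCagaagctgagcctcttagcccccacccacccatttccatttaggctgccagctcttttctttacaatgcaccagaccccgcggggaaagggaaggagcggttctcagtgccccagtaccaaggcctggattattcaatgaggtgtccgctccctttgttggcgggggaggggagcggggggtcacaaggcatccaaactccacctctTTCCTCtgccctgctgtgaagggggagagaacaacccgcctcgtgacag
Mylip, chr13:45389492-45389791, plus strand: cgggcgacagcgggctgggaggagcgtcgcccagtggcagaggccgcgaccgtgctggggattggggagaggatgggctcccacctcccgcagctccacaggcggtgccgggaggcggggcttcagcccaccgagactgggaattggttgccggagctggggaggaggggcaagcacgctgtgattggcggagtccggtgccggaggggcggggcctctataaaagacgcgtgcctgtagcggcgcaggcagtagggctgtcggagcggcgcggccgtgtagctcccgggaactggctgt
The capitals in Abca1 are the LXR element on the opposite strand, starting 67 bases before the gene start. In Apoe they are the PU.1 core, once on each strand, and the sterol element between them. Of the 2 other Apoe windows in the table, 1 held a PU.1 core and 1 held none of the motifs. The windows of Lrp1 and Soat1 held none of the 3 motifs. These matches describe letters in a window and not bound sites.

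Of the 9 genes, the 2 apolipoproteins had the largest fold changes. Apoe, the apolipoprotein that lipoprotein receptors recognise (chromosome 7, 19696109 to 19699188), was at 838, 681 and 1411 CPM in Cre 1, 2 and 3 and 5249, 7167 and 1845 CPM in flox 1, 2 and 3. Flox 3 was much nearer to Cre 3 than to the other flox libraries, but the groups did not overlap. Apoe fell by 2.28 ± 0.53 on the log2 scale (edgeR adjusted p = 0.0378). It was the most abundant of the 9 genes per length in all 6 libraries, at 421 ± 159 FPKM (a level per transcript length and library size) in Cre and 1806 ± 962 FPKM in flox (SD, n = 3). Among all 22966 genes its FPKM ranked at place 131, 160 and 66 in Cre 1, 2 and 3 and at place 13, 10 and 38 in flox 1, 2 and 3. Apoc1, a small apolipoprotein of very low- and high-density lipoproteins, was at 16.1, 5.38 and 11.0 CPM in Cre 1, 2 and 3 and 86.8, 141 and 46.7 CPM in flox 1, 2 and 3. Even its highest Cre library was well below flox 3. Apoc1 fell by 3.08 ± 0.54 on the log2 scale (edgeR adjusted p = 0.0250), the steepest of the 9 and the gene at place 180 from the bottom among 14795. It also had the fewest counts, 223 to 644 in Cre libraries, so its values carry the most counting error.

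Apoc1 (19689481 to 19692660) lies next to Apoe, 3448 bases away on the same strand, in a cluster with Apoc4 and Apoc2. The other 2 genes of the cluster, named here for their position, were close to absent. Apoc2, whose protein activates lipoprotein lipase, had 2, 1 and 1 counts in Cre 1, 2 and 3 and 19, 10 and 1 in flox 1, 2 and 3, and Apoc4 had 8, 16 and 9 counts in Cre and 14, 1 and 21 in flox libraries. Both overlap exons of the predicted gene Gm44805, whereas no exon of the 9 genes overlaps another gene in the GENCODE M21 annotation. The ratio of Apoe to Apoc1 by FPKM was 11.8, 28.7 and 29.2 in Cre 1, 2 and 3 and 13.7, 11.5 and 8.96 in flox 1, 2 and 3, so the 2 neighbours did not keep one ratio and the groups overlapped (exact permutation test, two-sided, p = 0.20 unadjusted and 0.288 adjusted over the 36 pairs of the 9 genes).

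Among the 3 receptors, the scavenger receptor had the largest fold change. Msr1, the class A scavenger receptor of macrophages for modified low-density lipoprotein (chromosome 8, 39581685 to 39642673), was at 192, 211 and 245 CPM in Cre 1, 2 and 3 and 831, 944 and 463 CPM in flox 1, 2 and 3. The Cre libraries lay close together and far below flox 3. Msr1 fell by 1.79 ± 0.27 on the log2 scale (edgeR adjusted p = 0.0237). Scarb1, the receptor that takes cholesteryl ester from high-density lipoprotein (chromosome 5, 125277087 to 125341094), was at 49.8, 48.9 and 52.5 CPM in Cre 1, 2 and 3 and 93.2, 129 and 74.2 CPM in flox 1, 2 and 3. Its Cre libraries had the tightest spread of any of the 9 genes, 50.4 ± 1.84 CPM, against 98.8 ± 27.8 CPM in flox (SD). Scarb1 fell by 0.97 ± 0.20 on the log2 scale (edgeR adjusted p = 0.0302). Lrp1, the large endocytic receptor that clears apolipoprotein E-bearing remnants (chromosome 10, 127538161 to 127621148), was at 965, 790.3 and 1148 CPM in Cre 1, 2 and 3 and 1807, 1994 and 808 CPM in flox 1, 2 and 3. Here flox 3 lay among the Cre libraries. The log2 fold change was -0.67 ± 0.34 (edgeR adjusted p = 0.217), and without flox 3 it was -0.97 ± 0.17 (edgeR adjusted p = 0.00916).

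The last 2 genes act inside the cell. Mylip, a ubiquitin ligase that marks lipoprotein receptors for breakdown (chromosome 13, 45389742 to 45412022), was at 36.1, 38.1 and 43.0 CPM in Cre 1, 2 and 3 and 75.6, 88.0 and 68.8 CPM in flox 1, 2 and 3. The groups did not overlap, and flox 3, the lowest flox library, stood nearer to flox 1 than to any Cre library. Mylip fell by 0.99 ± 0.13 on the log2 scale (edgeR adjusted p = 0.0237), with the lowest p of the 9. Soat1, which esterifies cholesterol for storage (chromosome 1, 156424525 to 156474331), was at 211, 190 and 165 CPM in Cre 1, 2 and 3 and 353, 434 and 181 CPM in flox 1, 2 and 3. Flox 3 again lay among the Cre libraries. The log2 fold change of Soat1 was -0.77 ± 0.31 (edgeR adjusted p = 0.128), and without flox 3 it was -1.06 ± 0.14 (edgeR adjusted p = 0.00383).

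**Figure D2:**
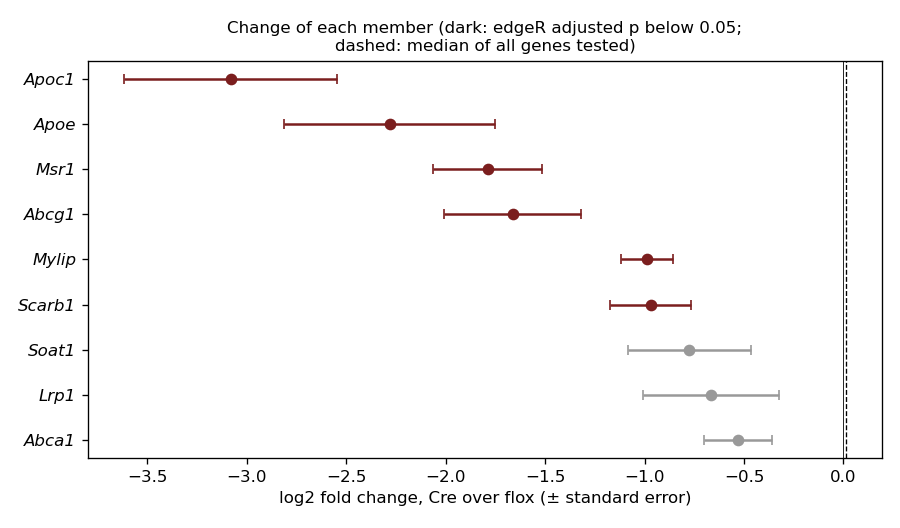
Log2 fold change, Cre over flox, with its standard error, for each of the 9 genes (edgeR, n = 3 per group); dark points passed the test, and the dashed line is the median of all genes tested, 0.01. Values run from -3.08 for Apoc1 to -0.53 for Abca1, and the 3 grey points are Soat1, Lrp1 and Abca1.

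The libraries of a group did not share one level. Flox 2 was the highest of the 6 libraries for all 9 genes, and flox 3 was the lowest flox library for 8 of the 9, the exception being Abca1. The macrophage list had the same order among the flox libraries, with mean log2 CPM of 8.57, 9.02 and 7.31 in flox 1, 2 and 3, against 5.63, 5.15 and 5.54 in Cre 1, 2 and 3. Relative to the flox mean, flox 3 stood at -1.16 for Apoe, -0.83 for Apoc1 and -0.82 for Lrp1 on the log2 scale. It stood at -0.78 for Abcg1, -0.74 for Soat1, -0.62 for Msr1 and -0.38 for Scarb1, but at -0.16 for Mylip and -0.08 for Abca1. Of the markers of other cells, dendritic markers had 3 of 5 tested members lower and 0 higher, with summed levels of 102 to 153 CPM in Cre and 236 to 323 CPM in flox libraries. Hepatocyte markers had 1 of 11 lower and 0 higher, with summed levels of 80.3 to 374 CPM in Cre and 201 to 674 CPM in flox libraries. Endothelial markers had 1 of 12 lower and 0 higher. Their summed level was 2877, 4952 and 3409 CPM in Cre 1, 2 and 3. In flox 1, 2 and 3 it was 2485, 1958 and 5611 CPM, so flox 3 had the highest level of the 6 libraries. The hepatocyte and endothelial shares are near the 8.94% of all genes called lower, and the summed levels of both lists overlapped between the groups. Their median log2 fold changes differed, at -1.17 for hepatocyte and 0.08 for endothelial markers. Of the 11 hepatocyte markers tested, 8 had negative values and 4 had an unadjusted p below 0.05 in edgeR. Mesothelial markers had 0 of 8 and cholangiocyte markers 0 of 6 past the edgeR test in either direction, with 5 and 0 at an unadjusted p below 0.05 and 6 and 0 called in DESeq2, the 6 all higher. In limma-voom 0 of either were called. The mesothelial median log2 fold change was 1.47 and the cholangiocyte median -0.06. Summed mesothelial levels were 670, 813 and 183 CPM in Cre 1, 2 and 3 and 228, 139 and 221 CPM in flox 1, 2 and 3. Without Cre 3, edgeR called 6 of 8 mesothelial markers higher, beside 771 of 15288 genes in the whole table. When the macrophage list mean was added to the fit as a covariate, 0 of the 9 genes passed in edgeR. Abcg1, Apoe, Scarb1, Lrp1 and Soat1 then had positive log2 values, and at an unadjusted p below 0.05 there were 2 higher, Lrp1 and Soat1, and 0 lower. That mean did not overlap between the groups, so the group and the macrophage level cannot be told apart in this design.

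**Figure D3:**
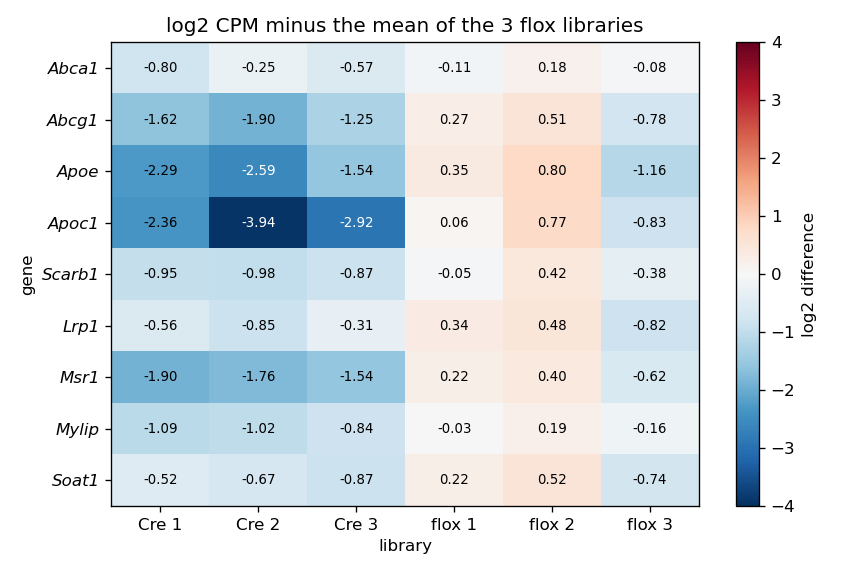
Log2 CPM of each gene (rows) in each library (columns) minus that gene's mean over the 3 flox libraries; blue is lower and red higher. Apoc1 in Cre 2 is the lowest cell, at -3.94, and flox 3 is below the other flox libraries in every row but that of Abca1.

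Ratios within a library, by FPKM, show how the genes varied against each other. Abcg1 to Lrp1 stood at 0.276, 0.277 and 0.299 in Cre 1, 2 and 3 and 0.545, 0.585 and 0.591 in flox 1, 2 and 3. This ratio hardly varied within either group, and flox 3 sat with the other flox libraries although it was lower in both genes. Apoe to Lrp1 was 5.37, 5.33 and 7.60 in Cre 1, 2 and 3 and 18.0, 22.2 and 14.1 in flox 1, 2 and 3. Msr1 to Lrp1 was 0.351, 0.472 and 0.377 in Cre 1, 2 and 3 and 0.813, 0.836 and 1.01 in flox 1, 2 and 3. For all 3 ratios the groups did not overlap and the exact permutation test (two-sided) gave p = 0.10, the smallest that 3 libraries against 3 allow, and 0.212 when adjusted over 36 pairs, so no pair could pass. Of the 8 ratios with Lrp1, 4 separated the groups, the other one being that of Apoc1. Those with Abca1, Mylip, Scarb1 and Soat1 overlapped. Of all 36 ratios 17 separated the groups. The share among ratios of other genes was not computed, so these counts have no background. Single genes separated the groups often, with Cre lower for 20.0% and higher for 19.6% of all genes tested. Mylip to Scarb1 was 0.797, 0.855 and 0.900 in Cre 1, 2 and 3 and 0.891, 0.751 and 1.02 in flox 1, 2 and 3, a log2 difference of -0.05 with overlapping groups (exact permutation p = 0.90).

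**Figure D4:**
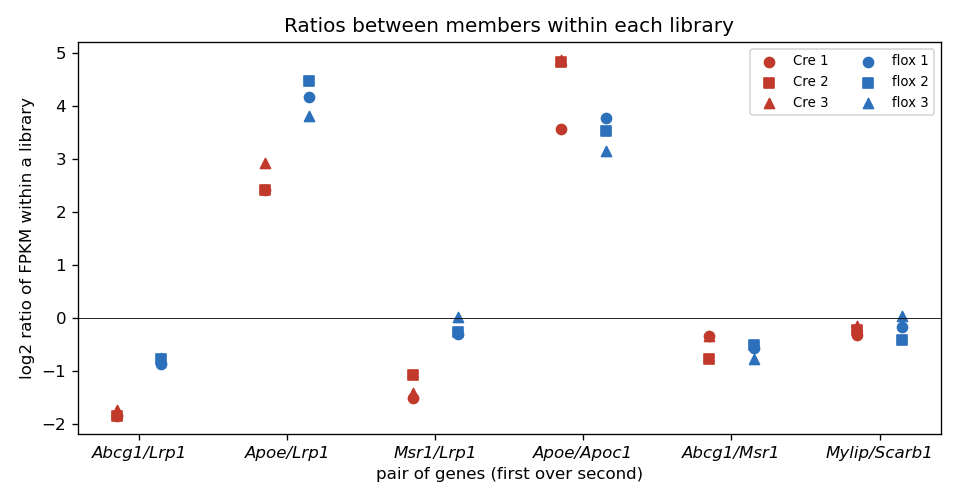
Log2 ratio of the FPKM of 2 genes within each library, Cre (red) left of flox (blue), with symbols for the replicate number. The ratios of Abcg1, Apoe and Msr1 to Lrp1 separate the groups, while those of Apoe to Apoc1, Abcg1 to Msr1 and Mylip to Scarb1 overlap.

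Per length, the order of the 9 genes differed between the groups. Apoc1 stood at place 6 in Cre and 2 in flox libraries, and Abca1 at place 3 in Cre and 6 in flox libraries. In Cre libraries Apoe was followed by Lrp1 at 67.7 ± 11.8, Abca1 at 43.3 ± 8.23, Soat1 at 41.5 ± 5.71, Msr1 at 26.7 ± 2.88, Apoc1 at 20.7 ± 10.5, Abcg1 at 19.3 ± 4.15, Scarb1 at 12.9 ± 0.331 and Mylip at 10.9 ± 0.807 FPKM (SD, n = 3). Neighbours whose libraries overlapped were Abca1 with Soat1, Msr1 with Apoc1, and Apoc1 with Abcg1. In flox libraries Apoe was followed by Apoc1 at 154 ± 73.2, Lrp1 at 95.0 ± 35.7, Msr1 at 81.7 ± 23.9, Soat1 at 62.6 ± 22.3, Abca1 at 56.0 ± 4.82, Abcg1 at 54.2 ± 19.8, Scarb1 at 22.4 ± 5.22 and Mylip at 19.4 ± 1.52 FPKM. There, all neighbours from Apoc1 to Abcg1 overlapped, as did Scarb1 with Mylip, and the steps from Apoe to Apoc1 and from Abcg1 to Scarb1 were clear of overlap.

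The genes with the most similar pattern were found by the root-mean-square difference of centred log2 CPM over the 6 libraries, among 9940 genes of at least 3 log2 CPM on average. Abca1 lay nearest to Naif1 (0.08) and Sema6b (0.08), Abcg1 to Unc13d (0.05) and Plekhm2 (0.07), and Apoe to the Fc receptor gene Fcgr3 (0.08) and the phosphatase gene Ptpn22 (0.10). Apoc1 lay nearest to Rims3 (0.18) and the leukocyte receptor gene Lilra5 (0.20), Mylip to the cytokine receptor gene Csf2rb2 (0.06) and Fhod1 (0.07), and Scarb1 to Hps3 (0.05) and Myo9a (0.08). Msr1 lay nearest to Tmem221 (0.08) and the integrin adaptor gene Fermt3 (0.10), Lrp1 to Dhdh (0.07) and Paqr7 (0.07), and Soat1 to Hcfc1r1 (0.04) and Phka2 (0.06). Among the 9 genes themselves the closest were Mylip and Scarb1 (0.14), then Abcg1 and Msr1 (0.18), then Lrp1 and Soat1 (0.24). Many genes outside the 9 lay closer. There were 66 such genes for Mylip and 117 for Scarb1, 56 for Abcg1 and 37 for Msr1, and 207 for Lrp1 and 356 for Soat1. These distances are descriptions over 6 libraries, and reads of Csf2rb2 may be shared with its close copy Csf2rb.

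Other genes of cholesterol handling were followed in 8 lists of 74 genes, of which 66 were tested. Of these, 16 fell and 3 rose, or 28.8%, with a median log2 fold change of -0.37, against 15.3% of all genes called in either direction and a median of 0.01. Of 6 LXR and partner receptors 3 fell and 0 rose. Nr1h3, which encodes LXR alpha, averaged 35.0 ± 12.4 CPM in Cre and 204 ± 70.6 CPM in flox libraries and fell by 2.54 ± 0.37 on the log2 scale (edgeR adjusted p = 0.0237). Nr1h2, which encodes LXR beta, was at 79.5 ± 8.36 CPM in Cre and 95.9 ± 1.30 CPM in flox, at -0.27 ± 0.11 on the log2 scale (edgeR adjusted p = 0.127). The retinoid X receptor Rxra (-1.08 ± 0.20) and the lipid-sensing receptor Pparg (-2.29 ± 0.43) fell too. Of the 4 other LXR target genes 1 fell and 0 rose, the phosphodiesterase-like Smpdl3a (-2.56 ± 0.49). The fatty acid regulator Srebf1, whose exons overlap those of Rai1, stood at 0.02 ± 0.11.

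In the list of transporters, other apolipoproteins and lipoprotein remodelling, 2 of 11 tested members fell and 0 rose. They were the phospholipid transfer protein Pltp (-2.66 ± 0.42), whose exons overlap those of Ctsa, and the lipoprotein lipase Lpl (-2.01 ± 0.32), at 338 ± 32.5 CPM in Cre and 1359 ± 552 CPM in flox libraries. Receptors and their helpers had 2 of 20 higher and 2 lower in edgeR, 3 of 21 higher and 9 lower in DESeq2, and 2 of 20 higher and 0 lower in limma-voom. The edgeR shares are near the 6.35% of all genes called higher and the 8.94% called lower. Without flox 3, edgeR called 3 of 20 higher and 8 lower, beside 2447 higher and 2882 lower of 15296 genes in the whole table. In DESeq2 the whole table had 1797 higher and 2247 lower of 22966 genes. In limma-voom it had 578 higher and 826 lower of 14795. Vldlr, the very low-density lipoprotein receptor (1.70 ± 0.35), and Lrp8, an apolipoprotein E receptor (0.75 ± 0.18), rose, and Lrp4 (-1.87 ± 0.47) and the scavenger receptor-like Scara3 (-1.46 ± 0.38) fell. Vldlr stood at 21.0, 11.6 and 12.5 CPM in Cre 1, 2 and 3 and 3.41, 4.02 and 6.49 CPM in flox 1, 2 and 3, with no overlap. The proteins of Vldlr and Lrp8 are known targets of the Mylip ligase, but the values here are of RNA and a link was not tested.

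Other genes release cholesterol from lysosomes and lipid droplets. Of 10 genes of lysosomal and intracellular sterol transfer 3 fell and 0 rose, the lysosomal acid lipase Lipa (-2.20 ± 0.47) and the sterol carriers Stard3 (-1.21 ± 0.18) and Gramd1b (-1.26 ± 0.29). DESeq2 called 5 of these 10 lower and limma-voom 2, and edgeR without flox 3 called 6. Over the whole table these 3 fits called 2247 of 22966, 826 of 14795 and 2882 of 15296 genes lower. Npc1, the lysosomal cholesterol exporter, whose exons overlap those of Rmc1, was at -0.80 ± 0.21 (edgeR adjusted p = 0.0509). Among 5 genes of cholesteryl ester making and hydrolysis 3 fell and 0 rose, the droplet coat Plin2 (-1.14 ± 0.20), the ester hydrolase Nceh1 (-1.16 ± 0.24) and the lipase Lipe (-1.06 ± 0.25). Oxysterol enzymes split, with Ch25h, which makes 25-hydroxycholesterol, rising by 1.95 ± 0.39 and Cyp27a1 (-2.21 ± 0.54) and Hsd3b7 (-0.89 ± 0.18) falling among 4 tested. Ch25h was at 76.0, 59.9 and 123 CPM in Cre 1, 2 and 3 and 24.3, 12.9 and 30.0 CPM in flox 1, 2 and 3. No gene of SREBP processing passed, with 0 of 6 in edgeR, 2 of 6 at an unadjusted p below 0.05, 1 higher in DESeq2, 0 in limma-voom and 3 higher in edgeR without flox 3, and a median of 0.30. Over the whole table DESeq2 called 1797 of 22966 genes higher, and edgeR without flox 3 called 2447 of 15296. The regulator Srebf2 was at 0.29 ± 0.18 and the protease gene Mbtps1 at 0.35 ± 0.10 (edgeR adjusted p of 0.309 and 0.0612). The edgeR adjusted p of the 19 pathway genes that passed ran from 0.0237 to 0.0478. Exons of Lipe, Gramd1b, Ch25h, Hsd3b7 and Nr1h3 overlap predicted or antisense genes, and no source used here says how strand was used in counting.

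**Figure D5:**
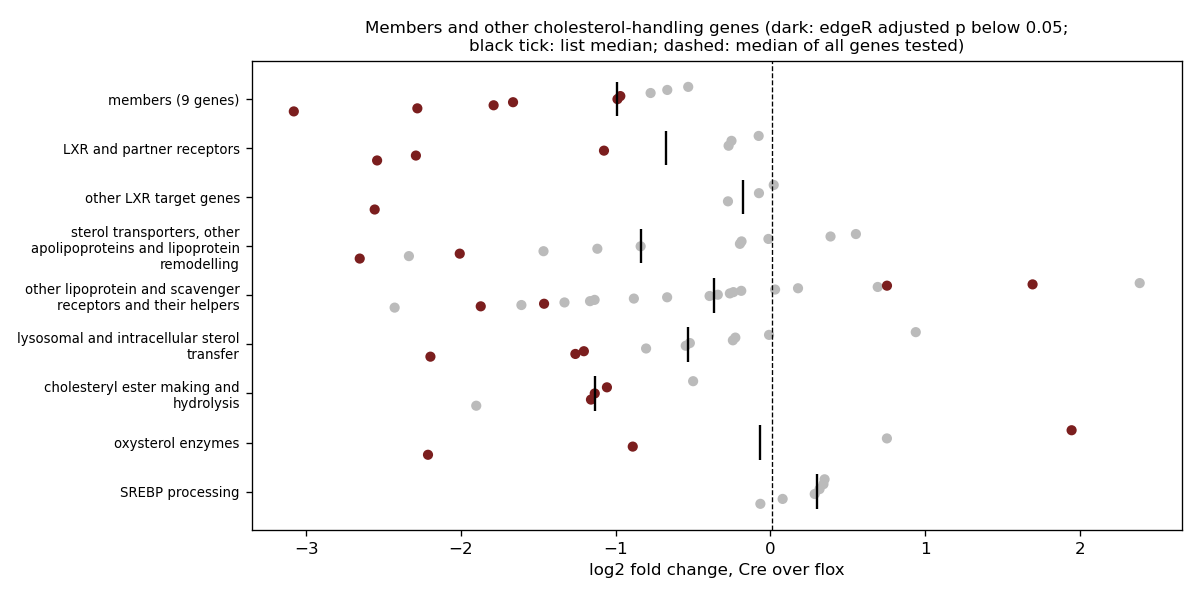
Log2 fold change, Cre over flox, of the 9 genes (top row) and of the tested genes of each of 8 other cholesterol-handling lists; dark points passed edgeR's test, black ticks are list medians and the dashed line is the median of all genes tested. The medians run from -1.14 for cholesteryl ester genes to 0.30 for SREBP processing, and Ch25h, Vldlr and Lrp8 are the dark points on the right.

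The calls depended on which libraries were included. Without any 1 of Cre 1, Cre 2, flox 1 and flox 2, 0 of the 9 genes and 0 of the whole table were past the adjusted threshold in edgeR, with 6 or 7 of the 9 at an unadjusted p below 0.05. Without Cre 3, 3 of the 9 fell, beside 598 lower and 771 higher of 15288 genes in the whole table. Without flox 3, 8 of the 9 fell, beside 2882 lower and 2447 higher of 15296 genes, so calls over the whole table also rose in that fit. The 9 log2 fold changes were negative in each of these 6 fits.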

How the data were processed

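The deposited count table holds raw counts per gene symbol for 6 libraries, 3 titled Cre and 3 titled flox. The FPKM table that the authors deposited holds each count divided by library total and 1 length per gene, with 0 of 11560 genes (over 50 counts in each library) departing by over 1e-06. Per the labels' protocols, RNA was taken with a column kit and libraries were made with a SMARTER mRNA kit. GRCm38, mm10 and hg38 stand in the submitters' processing notes without a role. Aligner, counter and strand setting were not given in the sources used here. The table listed no gene without a name, and 0 columns were left unused.

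The test on counts was edgeR 4.0.16 (R 4.3.3), with TMM factors and no covariate, on the 14795 of 22966 genes that passed filterByExpr with minimum count 10 and minimum total 15. A standard error is the size of the log2 fold change over the square root of F. Alternatives used DESeq2 1.42.0, limma 3.58.1 (voom, and trend on log2(FPKM + 1) or log2(FPKM + 0.1)), other scalings and filters, each library left out, a replicate block and a macrophage covariate. The steps were tested on simulated data in which each gene varied on its own, and no result here rests on that test. CPM are TMM-normalised and FPKM are not, so their ratios between groups differ. Log2 CPM of lists and patterns used a prior count of 2. Positions and overlaps are from GENCODE M21 (GRCm38). Promoter windows are RefSeq's.

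The 9 genes, the lists and the tests were chosen with earlier results of these data known. The text names the targeted gene Bche, the 9 genes, Nr1h2, Nr1h3, Npc1 and Srebf2, the genes of each pathway list past the test (at most the 4 of lowest p, or the 1 of lowest p where none passed), and the 2 genes of nearest pattern per gene. Apoc2, Apoc4, Srebf1, Lrat, Des, Dcn and Hand2 were named after their values were seen. One further gene of the naming rule is not reported here.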

Additional observations from a re-analysis of the deposited data

How the results depend on the processing

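Counts of genes past the threshold depended on the libraries and the tool, while the signs of the 9 genes did not, apart from the macrophage covariate. Of the 9 genes, 6 fell in edgeR, and 0 to 8 did with 1 library left out, with the extremes given in the report. With a replicate block 0 did in edgeR, with 8 of 9 at an unadjusted p below 0.05. With the macrophage covariate 0 fell and 0 rose in edgeR; at an unadjusted p below 0.05, 0 were lower and 2, Lrp1 and Soat1, higher. Of the whole table, 940 genes were higher and 1323 lower. The counts were 1415 higher with library totals, 1797 higher and 2247 lower in DESeq2, 578 higher and 826 lower in limma-voom, and 5 higher and 89 lower with the macrophage covariate. With 1 library left out they ran from 0 to 2447 higher and from 0 to 2882 lower, the most without flox 3; without Cre 3 they were 771 and 598. Where they were 0 in edgeR, 3562 to 3978 genes had an unadjusted p below 0.05, and no other tool was run on those subsets or on the block and covariate fits. The replicate block left 0 higher and 0 lower in edgeR, with 4296 genes at an unadjusted p below 0.05. Same-numbered libraries did not deviate together, with correlations across genes of -0.03, -0.10 and -0.06 for numbers 1, 2 and 3, and no library correlated best with its own number, so the numbers were not taken as pairs. With library totals 57.0% of called genes were higher, against 41.5%, and limma-trend on FPKM gave 57.7% to 59.6%. Under the macrophage covariate the log2 fold change turned to 0.66 for Abcg1, 1.26 for Apoe, 0.22 for Scarb1, 1.72 for Lrp1 and 1.29 for Soat1; the cause was not tested. In the other 16 alternatives all 9 genes had negative values. Apoe narrowly missed the threshold in limma-voom (adjusted p = 0.0504) and on log2(FPKM + 1) (limma-trend, adjusted p = 0.0503). Apoc1, with the fewest counts, is the gene whose values depth limits most.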
